A study of Mus musculus with 13 samples.

Results

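The 37 genes examined here cover the route of glucose through heart muscle: 2 glucose transporters, 9 genes of hexokinase and upper glycolysis, 8 of lower glycolysis, 3 of lactate handling, 10 of pyruvate entry into mitochondria and 5 of glycogen metabolism. They were taken by gene symbol from the gene entries of the deposited count table, and the list was chosen with earlier results of these data known. All 37 were found among 35793 gene entries with their own symbol. All 37 also passed the filter on low counts that left 13434 genes for testing, so no member dropped out.

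Glucose enters heart muscle cells through the insulin-responsive transporter Slc2a4 (GLUT4) and the basal transporter Slc2a1 (GLUT1), is trapped by hexokinase, and is either stored as glycogen or split by glycolysis to pyruvate. Pyruvate is reduced to lactate by lactate dehydrogenase or passes the mitochondrial pyruvate carrier (Mpc1 with Mpc2) to the pyruvate dehydrogenase complex, which pyruvate dehydrogenase kinases switch off and phosphatases switch on. The adult heart takes most of its energy from fatty acids. Several steps have a striated-muscle form and a form found in many tissues or in the fetus, such as Pfkm against Pfkp, Pygm against Pygb, Eno3 against Eno1 and the Pkm isoforms M1 against M2, and stressed heart muscle is known for shifts between such forms.

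RNA came from the non-ischaemic left ventricle of C57BL/6JO1aHsd mice aged 8 to 10 weeks when treatment began, all with the time label 1W+6W, which the labels do not spell out. The groups compared were 3 mice after sham surgery without treatment, 5 mice with permanent ligation of the left anterior descending coronary artery (MI) given a control antibody, which the labels call anti IgG, at 10 mg/kg, and 5 mice with the same ligation given FG-3149, a mouse monoclonal antibody against connective tissue growth factor (CTGF, gene Ctgf), at 10 mg/kg. The tissue lay outside the infarct, so the values describe the surviving wall, and sham mice received no antibody. Comparisons with sham therefore hold surgery and antibody together, and both infarcted groups are compared with the same 3 sham libraries.

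The libraries held 10954922 to 17567238 estimated counts each. Ctgf itself, whose protein the antibody binds, stood at 37.8 to 46.9 CPM (counts scaled to a common library size) in sham, 233 to 439 CPM with IgG and 183 to 325 CPM with FG-3149. Muscle markers were high throughout: 12 cardiomyocyte markers summed to 99987 to 108004 CPM in sham, 86160 to 93800 CPM with IgG and 90172 to 100003 CPM with FG-3149. Fibroblast markers (8 genes) summed to 1234 to 1308, 2471 to 3889.5 and 2007 to 2472 CPM in the same order, and 9 macrophage markers to 345 to 352, 469 to 723 and 504 to 801 CPM. By edgeR's test against sham, which called 33.7% of all genes with IgG and 29.5% with FG-3149, 1 of 12 cardiomyocyte markers rose and 5 fell with IgG, and 2 rose and 5 fell with FG-3149. Of the fibroblast markers 7 of 8 rose in each comparison, of the macrophage markers 7 of 9 rose with IgG and 8 of 9 with FG-3149, and 0 fell. With FG-3149 against IgG, where 1.07% of all genes were called, 1 of these markers was called, the fibroblast marker Lum, lower with FG-3149 than with IgG, at 92.6 to 98.4 CPM against 109.8 to 141 CPM. DESeq2, which called 2.07% of all genes there, called 3 of 8 fibroblast markers, 0 of 12 cardiomyocyte markers and 0 of 9 macrophage markers. Postn, another fibroblast marker, stood at 240 to 345 CPM with FG-3149 and 377 to 837 CPM with IgG. Lum and Postn were named here after their values were seen. Skeletal muscle markers (9 genes) summed to no more than 5.88 CPM in any library. The part of cell make-up in the differences below was not tested, and in bulk tissue fewer cells of a type and less RNA per cell cannot be told apart. The 5 FG-3149 libraries stood apart in coverage. The share of a gene's counts that fell on the first exon of its transcripts had a median over 9435 genes of 0.625 to 0.766% in the sham libraries, 0.777 to 1.29% in those given IgG and 1.87 to 2.19% in those given FG-3149 (exact permutation test between the infarcted groups, p = 0.00794). Among 36 members with this measure, 27 (75%) had a higher first-exon share in every FG-3149 library than in any IgG library, beside 33.7% of the 9435 genes; count levels were not matched between members and all genes, and the difference was not tested.

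After infarction with IgG, the genes of glucose use moved in both directions. Of the 37 members, 8 rose, 15 fell and 14 did not pass the test against sham (edgeR's quasi-likelihood test, Benjamini-Hochberg adjusted p under 0.05 over all genes tested). That is 62.2% of the members called, where 33.7% of all tested genes were called, 17.8% higher and 15.9% lower. Here and below, a value given with a standard error (SE) is a log2 fold change of the infarcted group over sham, or of FG-3149 over IgG. The median log2 fold change of the members was -0.15, beside -0.00 for all genes. The 15 that fell were Slc2a4, Hk2, Pfkm, Aldoa, Eno3, Pkm, Ldhb, Pdha1, Pdhb, Dlat, Pdk2, Pdp1, Mpc2, Gys1 and Pygm, of which 6 belong to pyruvate entry. The 8 that rose were the transporter Slc2a1 and Hk1, Pfkp, Gapdh, Pgam1, Pdk3, Pygb and Ugp2.

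With FG-3149, 10 members rose, 7 fell and 20 did not pass against the same sham libraries. These calls cover 45.9% of the members, where 29.5% of all tested genes were called (15.6% higher and 13.9% lower), and the median log2 fold change was -0.01, beside -0.00 for all genes. Gapdh, Hk1, Pdk3, Pfkp, Pgam1, Pygb and Ugp2 were called higher in both comparisons with sham, and Ldhb, Pdha1, Pdk2, Pkm, Pygm and Slc2a4 were called lower in both. Between the infarcted groups 1 member passed, Mpc2, which was higher with FG-3149. That is 2.70% of members, where 1.07% of all tested genes were called (0.916% higher and 0.156% lower). The Mpc2 call was lost when first exons were left out (edgeR adjusted p = 0.209) and from last exons alone (0.676), within a range over the alternatives of 0.000173 to 0.676.

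**Figure D1:**
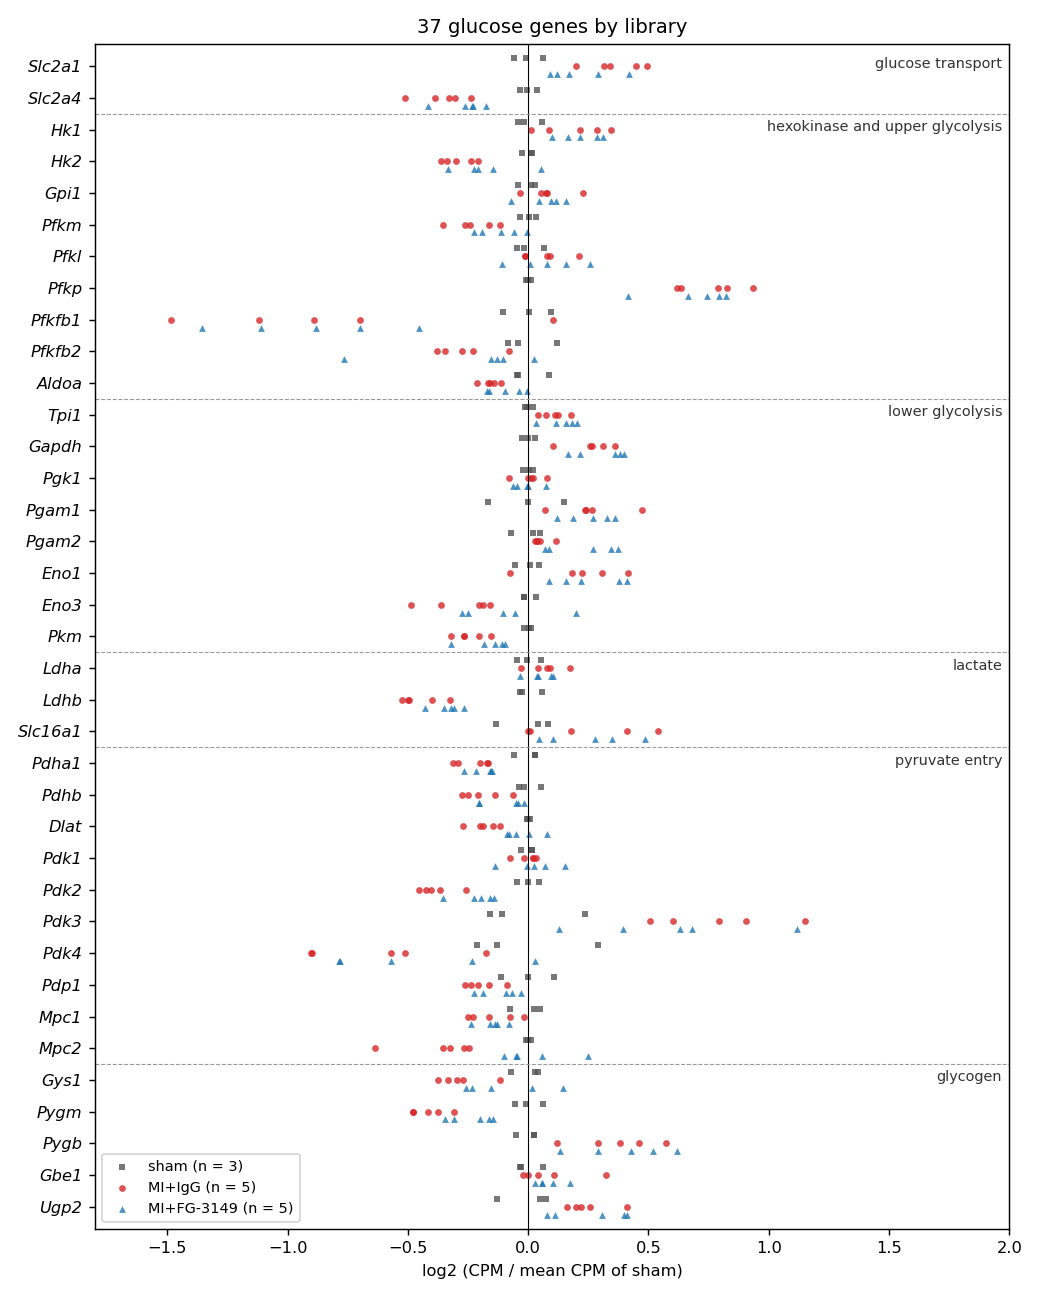
Each row is one of the 37 genes and each point one library, placed by the log2 of its CPM over the mean CPM of the 3 sham libraries (squares sham, n = 3; circles MI+IgG, n = 5; triangles MI+FG-3149, n = 5), with dashed lines between the steps of the pathway. The infarcted libraries lie right of sham for Pfkp and Pygb and left of sham for Slc2a4, Ldhb and Pygm, while for Pgk1, Pdk1 and Gpi1 they straddle it.

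The spread of single libraries was set beside the calls. In 21 members every IgG library lay outside the sham range, 7 of them above it and 14 below, and 20 of these 21 were among the 23 called. That is 56.8% of members without overlap, beside 35.8% of all tested genes (18.2% above and 17.7% below). For FG-3149 the groups did not overlap in 17 members, 9 above and 8 below, of which 15 were among the 17 called. That is 45.9% of members, beside 32.2% of all tested genes (16.6% above and 15.6% below). Between the infarcted groups only Mpc2 and Dlat separated the libraries without overlap, both higher with FG-3149, which is 5.41% of members beside 3.14% of all tested genes (1.90% higher and 1.24% lower). With 1 library left out at a time, 13 of the 23 IgG calls and 6 of the 17 FG-3149 calls against sham passed in all 8 such fits. Mpc2, whose call depends on the exons counted, passed between the infarcted groups in all 10. The like share of all called genes was not counted. Over all tested genes, 3329 to 4808 were called with IgG in these fits, beside 4529 in the full fit. With FG-3149 the counts were 2641 to 3815, beside 3959.

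**Figure D2:**
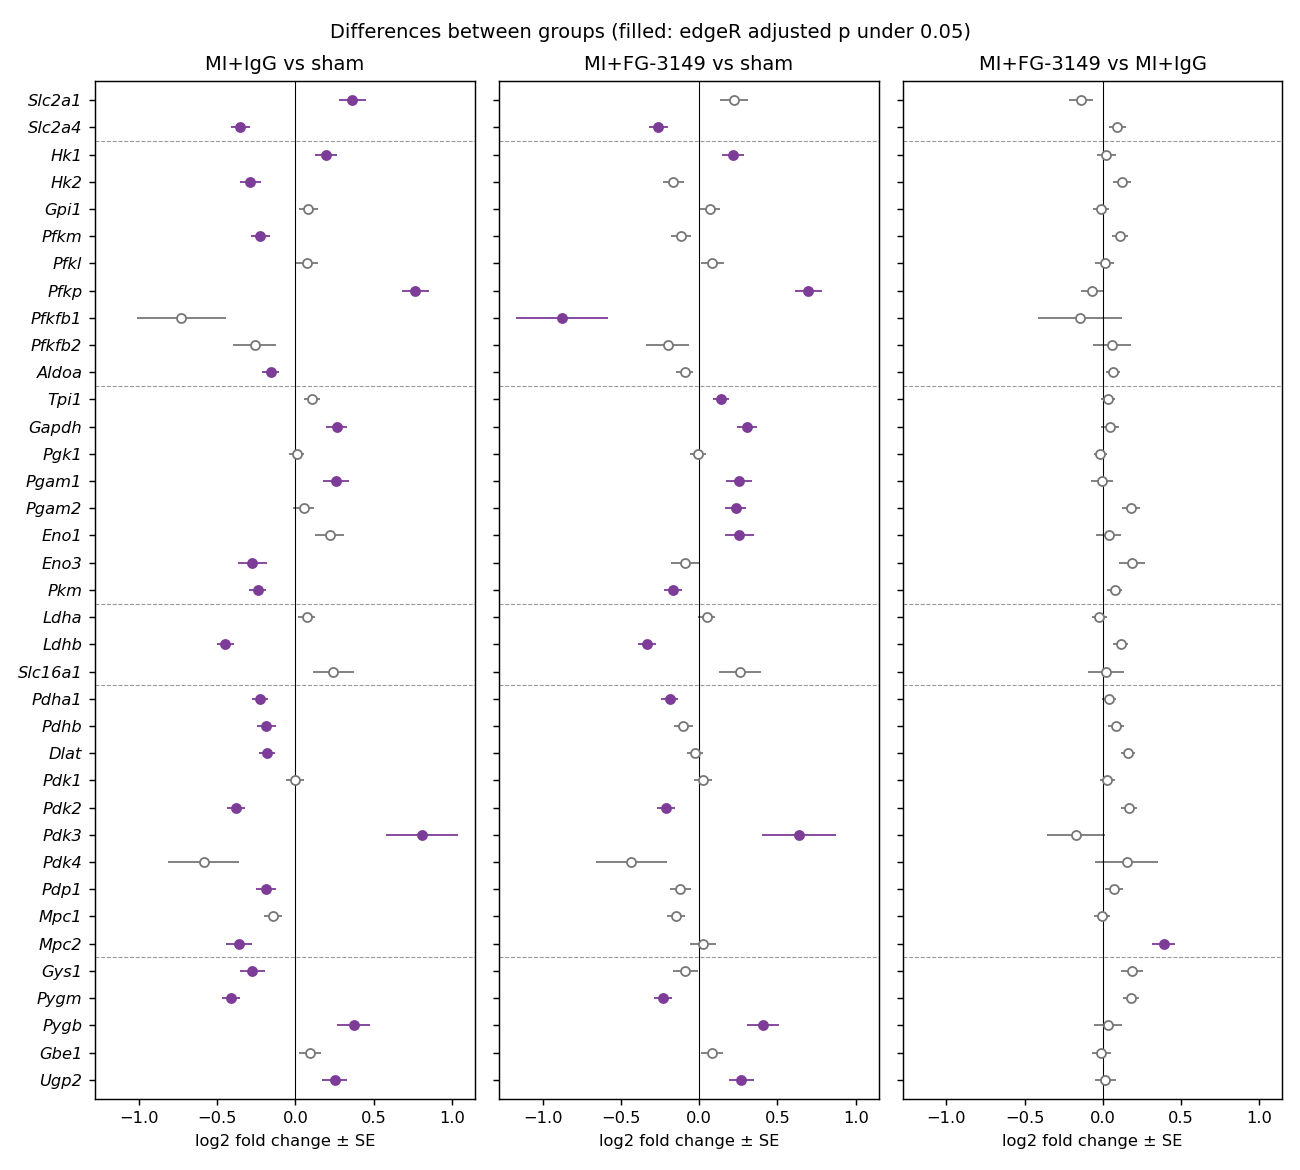
Log2 fold change of each member with its standard error in the 3 comparisons, from the fit over all 13 libraries; filled symbols have an edgeR adjusted p under 0.05. There are 23 filled symbols for MI+IgG against sham, 17 for MI+FG-3149 against sham and 1, Mpc2, between the infarcted groups.

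The transporters moved apart after infarction. Slc2a4, the insulin-responsive transporter (chr11:69942286-69948190, mm10, minus strand), stood at 490.2, 514 and 500.4 CPM in the sham libraries, 426, 352, 383, 399.9 and 406 CPM with IgG and 418, 376, 444, 427 and 427 CPM with FG-3149. No infarcted library reached the lowest sham value. Slc2a4 fell 1.28-fold with IgG, a log2 fold change of -0.35 (SE 0.06, adjusted p = 0.000284), and 1.20-fold with FG-3149, -0.26 (SE 0.06, adjusted p = 0.00417), both from edgeR. Slc2a1, the basal transporter (chr4:119108745-119137329, plus strand), stood at 20.6, 21.6 and 19.9 CPM in the sham libraries, 23.7, 29.2, 28.2, 26.2 and 25.7 CPM with IgG and 23.3, 27.7, 22.0, 22.5 and 25.3 CPM with FG-3149. Every infarcted library lay above the highest sham library. Slc2a1 rose 1.29-fold with IgG, a log2 fold change of 0.36 (SE 0.09, adjusted p = 0.00365), and its difference with FG-3149, 0.22 (SE 0.09, adjusted p = 0.0661), did not pass the edgeR threshold. Without FG-3149 replicate 3 that difference passed, at 0.25 and adjusted p = 0.0433 (range over the alternatives 0.0433 to 0.309). Counting only last exons, the Slc2a4 call with FG-3149 was lost (edgeR adjusted p = 0.0743, range over the alternatives 0.000817 to 0.0743), as was the Slc2a1 call with IgG (0.0936, range 0.00132 to 0.0936). Per length, Slc2a4 was the more abundant transporter, at 177 ± 2.28 RPKM (reads scaled for transcript length and library size, n = 3) in sham against 8.03 ± 0.256 RPKM for Slc2a1. With IgG the means were 141 and 10.4 RPKM.

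Hexokinase traps glucose as glucose 6-phosphate, and its forms moved in opposite directions. Hk2, the main insulin-regulated form of muscle (chr6:82725027-82774454, minus strand), stood at 487, 474 and 488 CPM in the sham libraries, 382, 392, 376, 410.0 and 418 CPM with IgG and 436, 418, 383, 413 and 501 CPM with FG-3149. All 5 IgG libraries lay below sham, while FG-3149 replicate 5 lay above it. Hk2 fell 1.22-fold with IgG, a log2 fold change of -0.29 (SE 0.07, adjusted p = 0.00281) by edgeR, and its difference with FG-3149 was -0.17 (SE 0.07, adjusted p = 0.0694). Without FG-3149 replicate 5 the latter passed, at -0.23 and adjusted p = 0.00678 (range over the alternatives 0.00678 to 0.17). It also passed by edgeR with a replicate block (-0.22, adjusted p = 0.0101) and from last exons alone (-0.18, adjusted p = 0.0429). Hk1, the form found in most tissues, rose 1.14-fold with IgG (0.19, SE 0.07, adjusted p = 0.0401) and 1.16-fold with FG-3149 (0.22, SE 0.07, adjusted p = 0.0276). Both Hk1 calls lay near the threshold and were lost when any 1 of several libraries was left out, listed with the other upper-glycolysis genes. With a replicate block they were also lost (edgeR adjusted p = 0.108 with IgG and 0.0703 with FG-3149).

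Phosphofructokinase makes fructose 1,6-bisphosphate and commits sugar to glycolysis; its subunits are the muscle form Pfkm, the liver form Pfkl and the platelet form Pfkp. Pfkp (chr13:6579874-6648724, minus strand) stood at 61.9, 61.5 and 62.5 CPM in the sham libraries, 95.3, 118, 96.3, 107 and 109.8 CPM with IgG and 109.7, 107, 82.6, 104 and 98.3 CPM with FG-3149. The lowest infarcted library lay above every sham library. Pfkp rose 1.70-fold with IgG, a log2 fold change of 0.77 (SE 0.09, adjusted p = 4.91e-06), and 1.62-fold with FG-3149, 0.70 (SE 0.09, adjusted p = 2.7e-05), and both edgeR calls passed in every alternative tried. Pfkm (chr15:98092589-98132447, plus strand) stood at 1399, 1435 and 1466 CPM in the sham libraries, 1282, 1121, 1213, 1196 and 1322 CPM with IgG and 1254, 1228, 1374, 1327 and 1429 CPM with FG-3149. It fell 1.17-fold with IgG, a log2 fold change of -0.22 (SE 0.06, adjusted p = 0.00823), and with FG-3149 the difference was -0.12 (SE 0.06, adjusted p = 0.163). Pfkl ranged from 147 to 159 CPM in sham, 151 to 176 CPM with IgG and 141 to 182 CPM with FG-3149, and its difference with IgG had an approximate 95% interval of -0.07 to 0.21. Per length, Pfkm was the most abundant subunit in each group: the sham means were 505 ± 12.01 RPKM for Pfkm, 40.9 ± 1.80 for Pfkl and 15.4 ± 0.317 for Pfkp (n = 3), and the IgG means 437, 43.5 and 26.5 RPKM.

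The remaining upper-glycolysis genes differed less or varied more. Gpi1, which converts glucose 6-phosphate to fructose 6-phosphate, did not pass in any comparison, with an approximate 95% interval of -0.04 to 0.20 on the log2 scale for IgG against sham. Pfkfb1 and Pfkfb2 make and break fructose 2,6-bisphosphate, the activator of phosphofructokinase. Pfkfb1 stood at 14.4, 15.3 and 13.3 CPM in the sham libraries, 15.4, 5.12, 7.74, 8.84 and 6.61 CPM with IgG and 7.78, 6.65, 10.5, 8.84 and 5.61 CPM with FG-3149. IgG replicate 1 alone lay at the sham level. Pfkfb1 fell 1.84-fold with FG-3149, a log2 fold change of -0.88 (SE 0.29, adjusted p = 0.0414), while with IgG the difference was -0.73 (SE 0.28, adjusted p = 0.0671). Without IgG replicate 1 the IgG difference passed at -1.02 (edgeR adjusted p = 0.000378, range over the alternatives 0.000378 to 0.173). It also passed by DESeq2 (adjusted p = 0.0216), by limma on log2(RPKM + 1) (0.0444) and by edgeR from last exons alone (0.0442). Pfkfb2, the heart form, ranged from 205 to 236 CPM in sham and 167 to 206 CPM with IgG, and did not pass (-0.26, SE 0.14, adjusted p = 0.165). This difference passed by edgeR when only the 2 groups were fitted (-0.26, adjusted p = 0.0114) and with a replicate block (-0.33, adjusted p = 0.0414). Aldoa, the muscle aldolase, fell 1.12-fold with IgG (-0.16, SE 0.05, adjusted p = 0.0305) and differed by -0.09 (SE 0.05, adjusted p = 0.208) with FG-3149. Against sham, leaving out 1 library ended the edgeR calls with IgG of Hk1 (without replicate 1, 2 or 3 of sham or replicate 2, 4 or 5 of IgG: up to 0.133, range over the alternatives 0.00784 to 0.133) and Aldoa (without replicate 2 of sham or replicate 2 or 3 of IgG: up to 0.189, range over the alternatives 0.00703 to 0.189), each value an adjusted p. With FG-3149 it ended those of Hk1 (without replicate 2 or 3 of sham or replicate 4 or 5 of FG-3149: up to 0.0926, range over the alternatives 0.0095 to 0.0926) and Pfkfb1 (without replicate 1, 2 or 3 of sham or replicate 1, 2, 4 or 5 of FG-3149: up to 0.116, range over the alternatives 0.00047 to 0.116).

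Lower glycolysis turns the split sugar into pyruvate and makes the pathway's ATP. Gapdh, the glyceraldehyde 3-phosphate dehydrogenase often used as a reference gene (chr6:125161852-125165583, minus strand), stood at 2033, 2069 and 2114 CPM in the sham libraries, 2228, 2492, 2568, 2476 and 2664 CPM with IgG and 2324, 2403, 2662, 2727 and 2697 CPM with FG-3149. Every infarcted library exceeded every sham library. Gapdh rose 1.20-fold with IgG, a log2 fold change of 0.26 (SE 0.07, adjusted p = 0.00453), and 1.24-fold with FG-3149, 0.31 (SE 0.07, adjusted p = 0.00198), and both edgeR calls passed in every alternative tried. Its next neighbour in the pathway, the ATP-forming phosphoglycerate kinase Pgk1, showed no difference that passed. Its approximate 95% intervals were -0.09 to 0.10 for IgG and -0.11 to 0.09 for FG-3149 against sham.

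Phosphoglycerate mutase and enolase each have a muscle form, Pgam2 and Eno3, and a form of many tissues, Pgam1 and Eno1. Pgam1 rose 1.20-fold with IgG (0.26, SE 0.08, adjusted p = 0.0224) and 1.19-fold with FG-3149 (0.26, SE 0.08, adjusted p = 0.0292), by edgeR. Pgam2 stood at 447, 487 and 477 CPM in the sham libraries, 479, 482, 483, 509 and 487 CPM with IgG and 499, 494, 596, 609 and 567 CPM with FG-3149. The FG-3149 libraries fell into replicates 1 and 2 near the other groups and replicates 3, 4 and 5 well above them. Pgam2 rose 1.18-fold with FG-3149 (0.23, SE 0.07, adjusted p = 0.0133) and did not pass with IgG (0.05, SE 0.07, adjusted p = 0.569), and the difference between the infarcted groups did not pass (0.18, SE 0.06, adjusted p = 0.147). Its call with FG-3149 was lost when first exons were left out (adjusted p = 0.124). Eno3 fell 1.21-fold with IgG (-0.27, SE 0.09, adjusted p = 0.034), from 1518 ± 30.3 CPM (n = 3) to 1255 ± 119 CPM (n = 5), while FG-3149 libraries ranged from 1254 to 1741 CPM. Eno1 and the triose phosphate isomerase Tpi1 passed only with FG-3149, at 0.26 (SE 0.09, adjusted p = 0.0468) and 0.14 (SE 0.05, adjusted p = 0.0484), beside 0.22 (SE 0.09, adjusted p = 0.0763) and 0.11 (SE 0.05, adjusted p = 0.121) with IgG. The difference between the infarcted groups did not pass for either gene, with edgeR adjusted p = 0.887 and 0.799.

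Gapdh, Pgk1, Pgam1, Eno1, Ldha and Tpi1 have near-identical pseudogene copies in the mouse genome, and how reads shared with such copies were assigned is not given in the sources used here, so their values are less certain. Several of these lower-glycolysis calls did not hold when 1 library was left out. With IgG, leaving out 1 library ended the edgeR calls of Pgam1 (without sham replicate 1 or 3: up to 0.138, range over the alternatives 0.00524 to 0.138) and Eno3 (without replicate 1, 2 or 3 of sham or replicate 2 or 4 of IgG: up to 0.106, range over the alternatives 0.00743 to 0.106). With FG-3149 it ended those of Tpi1 (without replicate 1, 2 or 3 of sham or replicate 1, 3, 4 or 5 of FG-3149: up to 0.135, range over the alternatives 0.0161 to 0.151), Pgam1 (without replicate 1 or 3 of sham or replicate 1, 2 or 5 of FG-3149: up to 0.152, range over the alternatives 0.0135 to 0.152), Pgam2 (without sham replicate 1: up to 0.0815, range over the alternatives 0.00497 to 0.124), Eno1 (without replicate 1, 2 or 3 of sham or replicate 3, 4 or 5 of FG-3149: up to 0.153, range over the alternatives 0.012 to 0.153) and Pkm (without replicate 1, 2 or 3 of sham or replicate 1 or 2 of FG-3149: up to 0.106, range over the alternatives 0.00887 to 0.106). Eno1 with IgG passed once IgG replicate 1 was left out, at 0.28 and adjusted p = 0.00642 (range over the alternatives 0.00642 to 0.216).

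Pyruvate kinase makes pyruvate, and Pkm makes 2 enzymes by including 1 of 2 neighbouring exons of equal length: M1, the form of adult muscle, or M2, the form of fetal and dividing cells. Both lie on the plus strand of chromosome 9 (mm10), M1 at chr9:59675029-59675195 and M2 at chr9:59675568-59675734, each 167 bases long. They are printed because counts on them show which form of the transcript was present; capitals mark the 64 positions at which they differ, and the other positions, 61.7% of the exon, are identical.
Pkm M1 exon: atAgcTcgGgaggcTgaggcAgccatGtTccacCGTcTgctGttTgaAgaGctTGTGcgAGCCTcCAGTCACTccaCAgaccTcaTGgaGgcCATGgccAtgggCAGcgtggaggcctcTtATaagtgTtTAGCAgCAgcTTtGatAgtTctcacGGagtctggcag
Pkm M2 exon: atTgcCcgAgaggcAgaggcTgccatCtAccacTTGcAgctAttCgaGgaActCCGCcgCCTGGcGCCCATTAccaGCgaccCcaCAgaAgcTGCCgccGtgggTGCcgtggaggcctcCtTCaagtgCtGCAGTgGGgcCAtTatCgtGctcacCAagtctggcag

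The gene as a whole fell after infarction. Pkm stood at 1394, 1375 and 1402 CPM in the sham libraries, 1206, 1156, 1114, 1154 and 1250.2 CPM with IgG and 1224, 1114, 1265, 1289 and 1301 CPM with FG-3149. All infarcted libraries lay below sham. It fell 1.18-fold with IgG (-0.24, SE 0.06, adjusted p = 0.00281) and 1.12-fold with FG-3149 (-0.17, SE 0.06, adjusted p = 0.0321), the latter call being lost when first exons were left out (edgeR adjusted p = 0.0724, range over the alternatives 0.00887 to 0.106). The M1 exon went from 94.7 ± 1.52 exon CPM (counts on the exon scaled by the library's total) in sham (n = 3) to 72.1 ± 4.30 with IgG and 72.3 ± 3.27 with FG-3149 (n = 5 each). The M2 exon stood at 4.84 ± 0.588, 6.58 ± 0.759 and 5.38 ± 1.10 exon CPM.

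As a share of counts on both exons, M2 made up 5.40, 4.45 and 4.72% in the sham libraries, 7.09, 9.27, 8.49, 8.36 and 8.60% with IgG and 6.61, 5.82, 7.41, 5.56 and 9.27% with FG-3149. Every infarcted library had a higher M2 share than every sham library. The mean M2 share was 4.86% in sham and 8.36% with IgG, a difference of 3.51 percentage points (2-sided exact permutation test over 56 groupings, p = 0.0179, adjusted over 3 comparisons 0.0536, which misses the threshold). With FG-3149 the mean was 6.93% (exact permutation p = 0.0536, adjusted 0.0804), and the 2 infarcted groups overlapped (exact p = 0.103). The smallest p that 3 against 5 libraries can give is 0.0179. The M2 exon held 49.0 to 136 counts per library, which limits the precision of each share.

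**Figure D3:**
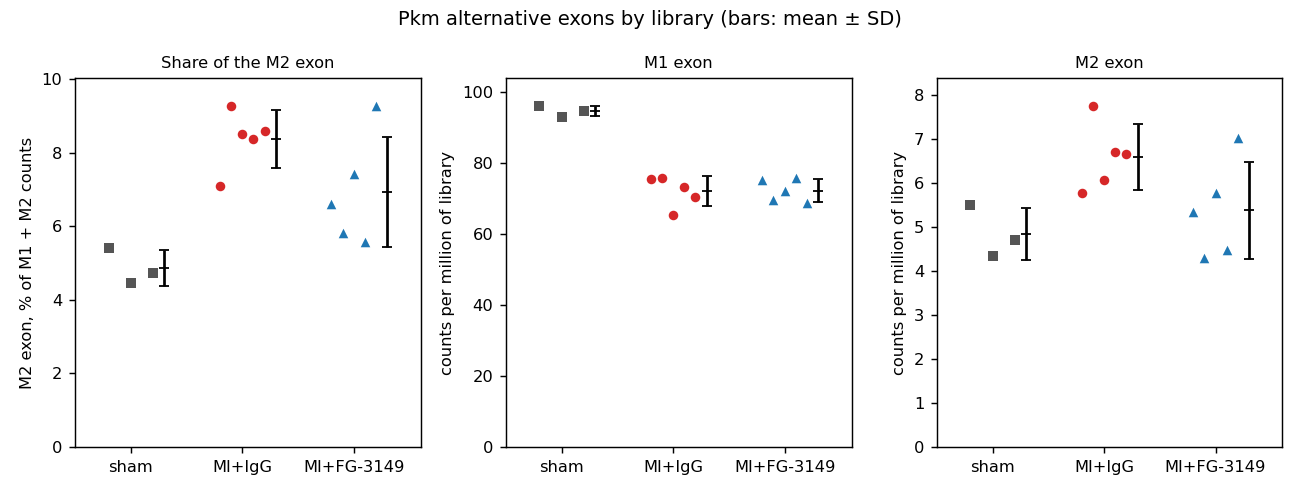
Share of the M2 exon among counts on both Pkm exons (left, %), and the M1 exon (middle) and M2 exon (right) in exon CPM, each point a library, bars the mean ± SD of 3 sham, 5 MI+IgG and 5 MI+FG-3149 libraries. The M1 exon is lower in every infarcted library than in sham, and the M2 share is higher in each of them.

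Lactate dehydrogenase interconverts pyruvate and lactate; the B subunit dominates in heart and the A subunit in skeletal muscle. Ldhb (chr6:142490249-142507943, minus strand) stood at 1937, 2067 and 1953 CPM in the sham libraries, 1585, 1409, 1506, 1406 and 1378 CPM with IgG and 1559, 1474, 1603, 1649 and 1589 CPM with FG-3149. The highest infarcted library lay below the lowest sham library. Ldhb fell 1.36-fold with IgG, a log2 fold change of -0.45 (SE 0.06, adjusted p = 1.12e-05), and 1.26-fold with FG-3149, -0.33 (SE 0.06, adjusted p = 0.000287), and both edgeR calls passed in every alternative tried. Ldha (chr7:46845804-46855627, plus strand) stood at 678, 659 and 706 CPM in the sham libraries, 699.8, 719, 667, 725 and 769 CPM with IgG and 700.0, 665, 728, 698 and 733 CPM with FG-3149. Its groups overlapped, and the approximate 95% interval of the log2 difference ran from -0.03 to 0.18 after IgG and from -0.06 to 0.15 after FG-3149. Per length, Ldhb was still the more abundant, at 1141 against 445 RPKM with IgG, beside 1536 against 419 RPKM in sham. Slc16a1, the monocarboxylate transporter MCT1 that carries lactate across the cell membrane, varied within the infarcted groups, from 289 to 421 CPM with IgG and 299 to 405 CPM with FG-3149 against 264 to 306 CPM in sham. It did not pass in any comparison (0.24, SE 0.13, adjusted p = 0.181 with IgG).

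Among the 6 steps, pyruvate entry held the most genes that fell with IgG: 6 of 10, with 1 higher and 3 not passed, where 15.9% of all genes were called lower. With FG-3149 the counts were 2 lower, 1 higher and 7 not passed, where 13.9% of all genes were called lower. The pyruvate dehydrogenase complex turns pyruvate into acetyl-CoA. Pdha1, the E1 alpha subunit that the kinases phosphorylate, went from 1637 ± 58.7 CPM in sham (n = 3) to 1399 ± 66.7 with IgG and 1436 ± 49.95 with FG-3149 (n = 5 each). It fell in both comparisons (-0.23, SE 0.05, adjusted p = 0.00274 with IgG and -0.19, SE 0.05, adjusted p = 0.0117 with FG-3149, by edgeR). Pdhb, the E1 beta subunit, fell 1.14-fold with IgG (-0.19, SE 0.06, adjusted p = 0.0248) and did not pass with FG-3149 (-0.10, SE 0.06, adjusted p = 0.218). Dlat, the E2 subunit, stood at 492, 495 and 492 CPM in the sham libraries, 445, 409, 455, 429 and 433 CPM with IgG and 464, 467, 520.4, 494 and 476 CPM with FG-3149. The IgG libraries lay below both other groups. Dlat fell 1.14-fold with IgG (-0.18, SE 0.05, adjusted p = 0.00973), differed from sham by -0.03 (SE 0.05, adjusted p = 0.74) with FG-3149, and by 0.16 (SE 0.04, adjusted p = 0.101) between the infarcted groups, neither of which passed.

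The kinases that inhibit the complex did not move as one. Pdk2, a main form in heart (chr11:95026258-95041371, minus strand), stood at 527, 543 and 510.3 CPM in the sham libraries, 439.7, 392, 398, 409 and 384 CPM with IgG and 450.1, 412, 477, 459.6 and 472 CPM with FG-3149. No infarcted library reached the sham range. Pdk2 fell 1.30-fold with IgG, a log2 fold change of -0.38 (SE 0.06, adjusted p = 5.88e-05), and 1.16-fold with FG-3149, -0.21 (SE 0.06, adjusted p = 0.00866), both by edgeR. Pdk4, the form induced by fasting and fatty acids (chr6:5483351-5496278, minus strand), stood at 423, 599.8 and 449 CPM in the sham libraries, 344, 331, 435, 262 and 263 CPM with IgG and 417, 285, 499.9, 285 and 331 CPM with FG-3149. The libraries of each group were widely spread, and replicate 3 was the highest of each infarcted group. Neither Pdk4 difference passed (-0.59, SE 0.23, adjusted p = 0.0714 with IgG and -0.43, SE 0.23, adjusted p = 0.183 with FG-3149). Without IgG replicate 3 the former passed, at -0.71 and adjusted p = 0.0351 (range over the alternatives 0.0351 to 0.266). By DESeq2 it passed as well (-0.59, adjusted p = 0.0454). Pdk3, scarce at 1.83 to 2.40 CPM in sham, rose 1.75-fold with IgG (0.81, SE 0.23, adjusted p = 0.0105) and 1.56-fold with FG-3149 (0.64, SE 0.23, adjusted p = 0.0474). Pdk1 did not pass, with an approximate 95% interval of -0.12 to 0.11 with IgG. Pdp1, the phosphatase that reactivates the complex, fell 1.14-fold with IgG (-0.19, SE 0.06, adjusted p = 0.0303) and did not pass with FG-3149 (-0.12, SE 0.07, adjusted p = 0.179).

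Clock genes are given beside Pdk4 because its transcript is known to follow feeding and daily rhythm, and clock genes differed between these groups. Arntl, a core clock activator, stood at 37.4, 31.9 and 31.7 CPM in the sham libraries, 15.8, 15.3, 4.82, 3.12 and 2.46 CPM with IgG and 13.8, 15.0, 18.5, 2.98 and 2.76 CPM with FG-3149. It separated replicates 1 and 2 from 3, 4 and 5 in the IgG group, and replicates 1, 2 and 3 from 4 and 5 in the FG-3149 group. Dbp, a clock output gene, stood at 11.7, 15.4 and 17.1 CPM in the sham libraries, 58.7, 62.2, 129.5, 149 and 69.1 CPM with IgG and 79.2, 85.2, 71.8, 173 and 165 CPM with FG-3149. Dbp rose with IgG, by 2.68 (SE 0.50, adjusted p = 0.00241), and with FG-3149, by 2.96 (SE 0.51, adjusted p = 0.00187), by edgeR. The Arntl difference with IgG, -2.02 (SE 0.65, adjusted p = 0.0366), was lost without replicate 1, 2 or 3 of sham or replicate 3, 4 or 5 of IgG (adjusted p up to 0.0985, range over the alternatives 0.0164 to 0.0985), and with FG-3149 it was -1.66 (SE 0.66, adjusted p = 0.0827). Of 14 clock genes tested, 5 were higher and 4 lower with IgG (33.7% of all genes called) and 3 higher and 3 lower with FG-3149 (29.5% of all genes). Of the 14, 0 passed between the infarcted groups by edgeR (1.07% of all genes called), where 0 had an unadjusted p under 0.05 and 0 passed by DESeq2. Their part in the Pdk4 values was not tested.

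The mitochondrial pyruvate carrier needs both of its subunits. Mpc1 (chr17:8283813-8297661, plus strand) differed from sham by -0.15 (SE 0.06, adjusted p = 0.0633) with IgG and by -0.15 (SE 0.06, adjusted p = 0.0638) with FG-3149, neither passing by edgeR. Without IgG replicate 1 or 3 the former passed, at -0.16 (adjusted p = 0.0439) and -0.18 (adjusted p = 0.0261), within a range over the alternatives of 0.0261 to 0.216. By DESeq2 it passed as well (-0.15, adjusted p = 0.0463). Mpc2 (chr1:165461208-165481214, plus strand) stood at 306, 309 and 305 CPM in the sham libraries, 255, 198, 259, 239.7 and 245 CPM with IgG and 296, 286, 364, 319 and 297 CPM with FG-3149. All 5 IgG libraries lay below both other groups, and the FG-3149 libraries surrounded sham. Mpc2 fell 1.28-fold with IgG (-0.36, SE 0.08, adjusted p = 0.00269). This call passed in every alternative tried, while by single exon the fall passed on exons 4 and 5 only. By whole-gene counts the difference from sham with FG-3149 was 0.03 (SE 0.08, adjusted p = 0.835). Between the infarcted groups Mpc2 was 1.31-fold higher with FG-3149, a log2 fold change of 0.39 (SE 0.07, adjusted p = 0.0124), the only member to pass there.

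The higher Mpc2 count with FG-3149 lay toward the start of the transcript. The gene was taken apart by exon after its call was seen, since first exons held more counts in the FG-3149 libraries. On the first exon (chr1:165461208-165461511), exon CPM were 35.9, 27.5 and 38.3 in sham, 30.4, 30.0, 47.0, 46.2 and 38.7 with IgG and 75.5, 80.9, 91.4, 84.0 and 68.5 with FG-3149. On the last of 5 exons (chr1:165480903-165481214) they were 154, 161 and 138, 122, 85.6, 106, 100.1 and 107 and 104, 96.2, 124, 106 and 103. The FG-3149 libraries thus lay above both other groups on the first exon and, with the IgG libraries, below sham on the last. From exon 1 to exon 5 the ratio of FG-3149 to IgG means was 2.08, 1.45, 1.27, 1.13 and 1.02 (2-sided exact permutation p = 0.00794 for exons 1 to 3, 0.119 and 0.786; adjusted over 15 tests 0.0335, 0.156 and 0.786). Against sham, the ratio of IgG means from exon 1 to exon 5 was 1.13, 0.891, 0.864, 0.754 and 0.691. The exact permutation p values were 0.411, 0.321, 0.107, 0.0179 and 0.0179, adjusted 0.44, 0.371, 0.156, 0.0335 and 0.0335. The last exon with FG-3149 was 0.708 times as high as in sham (exact permutation p = 0.0179, adjusted 0.0335).

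Counting the gene without its first exon, the difference between the infarcted groups was 0.24 on the log2 scale and no longer passed (edgeR adjusted p = 0.209). From the last exon alone it was 0.12 (adjusted p = 0.676), within a range over the alternatives of 0.000173 to 0.676. From the last exon alone, Mpc2 also differed from sham with FG-3149, at -0.36 on the log2 scale (adjusted p = 0.0101, range over the alternatives 0.0101 to 0.941). Over all genes, 144 were called between the infarcted groups, 52 (0.404% of those tested) with first exons left out and 54 (0.449%) from last exons alone. Dlat and Mpc1, which did not pass against sham with FG-3149, were lower from last exons alone, at -0.30 (adjusted p = 0.00155, range 0.00155 to 0.936) and -0.25 (adjusted p = 0.00779, range 0.00779 to 0.214). The calls on Mpc2, Dlat and Mpc1 that involve FG-3149 thus depend on which part of the gene is counted. Mpc1 also passed with first exons left out (-0.21, edgeR adjusted p = 0.0161) and by limma on log2(RPKM + 1) (-0.16, adjusted p = 0.0268). Other members were affected too: from last exons alone, 7 member calls with FG-3149 against sham were lost and 3 gained. The like counts over all genes were not made. The cause of the coverage was not tested.

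**Figure D4:**
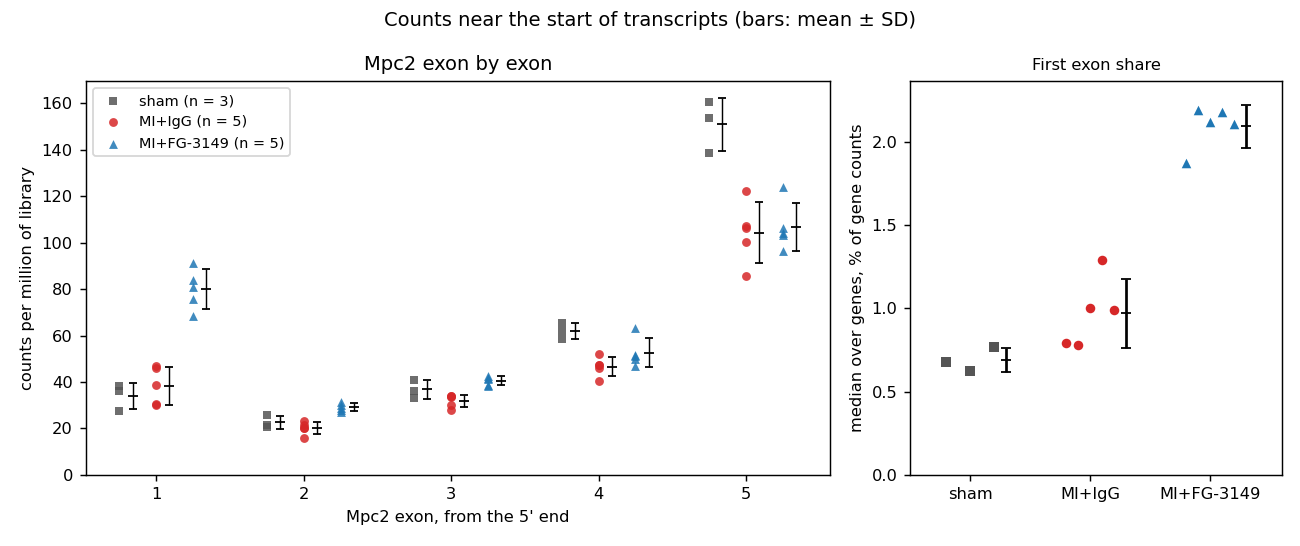
Left: exon CPM on each of the 5 Mpc2 exons, counted from the 5′ end, each point a library and bars the mean ± SD. Right: the median first-exon share over 9435 genes in each library (%). The FG-3149 triangles (n = 5) lie above IgG (n = 5) and sham (n = 3) on exon 1 and level with IgG, below sham, on exon 5.

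Other calls on pyruvate entry did not hold when 1 library was left out. With IgG, leaving out 1 library ended the edgeR calls of Pdhb (without replicate 1 or 2 of sham or replicate 2 or 4 of IgG: up to 0.118, range over the alternatives 0.0079 to 0.118), Pdk3 (without sham replicate 1 or 2: up to 0.0518, range over the alternatives 0.00657 to 0.0518) and Pdp1 (without replicate 1 or 3 of sham or replicate 2 or 3 of IgG: up to 0.184, range over the alternatives 0.0157 to 0.228). With FG-3149 it ended those of Pdha1 (without sham replicate 1 or 2: up to 0.0581, range over the alternatives 0.00142 to 0.0581), Pdk2 (without sham replicate 2: up to 0.0517, range over the alternatives 0.00212 to 0.0628) and Pdk3 (without replicate 1, 2 or 3 of sham or replicate 1, 2 or 3 of FG-3149: up to 0.149, range over the alternatives 0.0251 to 0.45). The Pdk3 call with FG-3149 was also lost with no filter on low counts (edgeR adjusted p = 0.0582) and with a replicate block (0.061). The Dlat, Pdha1, Pdk2 and Mpc2 calls with IgG passed in every alternative tried.

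Among the glycogen genes the 2 phosphorylases, which release glucose 1-phosphate from glycogen, moved in opposite directions. Pygm, the muscle form (chr19:6384429-6398459, plus strand), stood at 1373, 1485 and 1414 CPM in the sham libraries, 1149.8, 1021, 1021, 1067 and 1098 CPM with IgG and 1120.0, 1151, 1240.5, 1288 and 1273 CPM with FG-3149. Every infarcted library lay below sham. Pygm fell 1.33-fold with IgG, a log2 fold change of -0.41 (SE 0.06, adjusted p = 3.87e-05), and 1.17-fold with FG-3149, -0.23 (SE 0.06, adjusted p = 0.00677), and both edgeR calls passed in every alternative tried. Pygb, the brain form (chr2:150786796-150831748, plus strand), stood at 1129.8, 1072 and 1127 CPM in the sham libraries, 1205, 1355, 1529, 1447 and 1652 CPM with IgG and 1218, 1358, 1592, 1490.5 and 1705 CPM with FG-3149. Every infarcted library lay above sham, with IgG replicate 1 and FG-3149 replicate 1 the lowest of their groups. Pygb rose 1.30-fold with IgG (0.37, SE 0.10, adjusted p = 0.0125) and 1.33-fold with FG-3149 (0.41, SE 0.10, adjusted p = 0.00898). Per length, the sham means were 499.7 ± 13.8 RPKM for Pygm and 289 ± 11.9 RPKM for Pygb (n = 3), while with IgG they were 381 and 378 RPKM.

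Synthesis of glycogen gave a mixed pattern. Gys1, the muscle glycogen synthase, went from 167 ± 7.05 CPM in sham (n = 3) to 138 ± 9.71 CPM with IgG (n = 5), where it fell (-0.28, SE 0.08, adjusted p = 0.0137). With FG-3149 it ranged from 139 to 184 CPM and did not pass (-0.09, SE 0.08, adjusted p = 0.438). Ugp2, which makes the UDP-glucose that the synthase uses, rose 1.19-fold with IgG (0.25, SE 0.08, adjusted p = 0.022) and 1.20-fold with FG-3149 (0.27, SE 0.08, adjusted p = 0.0187). Gbe1, the branching enzyme, did not pass, with an approximate 95% interval of -0.04 to 0.23 with IgG. Leaving out 1 library ended the edgeR calls with IgG of Gys1 (without sham replicate 1 or 2: up to 0.0608, range over the alternatives 0.00102 to 0.0608), Pygb (without sham replicate 2: up to 0.0537, range over the alternatives 0.00234 to 0.0537) and Ugp2 (without replicate 3 of sham or replicate 3 of IgG: up to 0.128, range over the alternatives 0.00935 to 0.128), and with FG-3149 that of Ugp2 (without sham replicate 3: up to 0.102, range over the alternatives 0.00641 to 0.102).

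The balance between related forms was then measured within each library as the ratio of their RPKM values, which does not depend on how libraries are scaled. In 9 pairs and 3 comparisons, 27 exact permutation tests were made and adjusted together. The ratio rose for 6 of 9 pairs with IgG and for 6 of 9 with FG-3149 against the shared sham libraries, and for 0 of 9 between the infarcted groups, where the lowest adjusted p was 0.189 and 0 pairs had an unadjusted p under 0.05. In 7 of 9 pairs the ratios of the infarcted libraries did not overlap sham in each comparison.

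Pfkm exceeded Pfkp by 32.0 to 33.3 times in sham, by 13.4 to 19.1 times with IgG and by 16.1 to 23.4 times with FG-3149, so the ratio of Pfkp to Pfkm rose 1.99-fold and 1.77-fold (2-sided exact permutation p = 0.0179 each, adjusted 0.0402). Pygb stood at 0.535 to 0.610 of the Pygm level in the sham libraries, at 0.776 to 1.11 after IgG and at 0.806 to 0.992 after FG-3149, a rise of 1.71-fold and 1.55-fold. In some IgG libraries Pygb thus exceeded Pygm. The ratio of Slc2a1 to Slc2a4 rose 1.64-fold and 1.40-fold, that of Ldha to Ldhb 1.43-fold and 1.30-fold, and that of Pfkl to Pfkm 1.23-fold and 1.15-fold, with IgG and FG-3149. Each of these had the same exact permutation p of 0.0179 (adjusted 0.0402), the smallest that 56 groupings allow. Hk1 to Hk2 rose 1.39-fold with IgG (exact permutation p = 0.0179, adjusted 0.0402), and was 1.31 times the sham ratio with FG-3149 (exact permutation p = 0.0357, adjusted 0.0689). Eno1 to Eno3 rose 1.28-fold with FG-3149 (exact permutation p = 0.0179, adjusted 0.0402), and was 1.41 times the sham ratio with IgG (exact permutation p = 0.0357, adjusted 0.0689). Pgam1 to Pgam2 and Pdk4 to Pdk2 overlapped between groups and did not pass. Apart from Pdk4 to Pdk2, the pairs were written with the muscle or heart form second, and no ratio that passed fell.

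**Figure D5:**
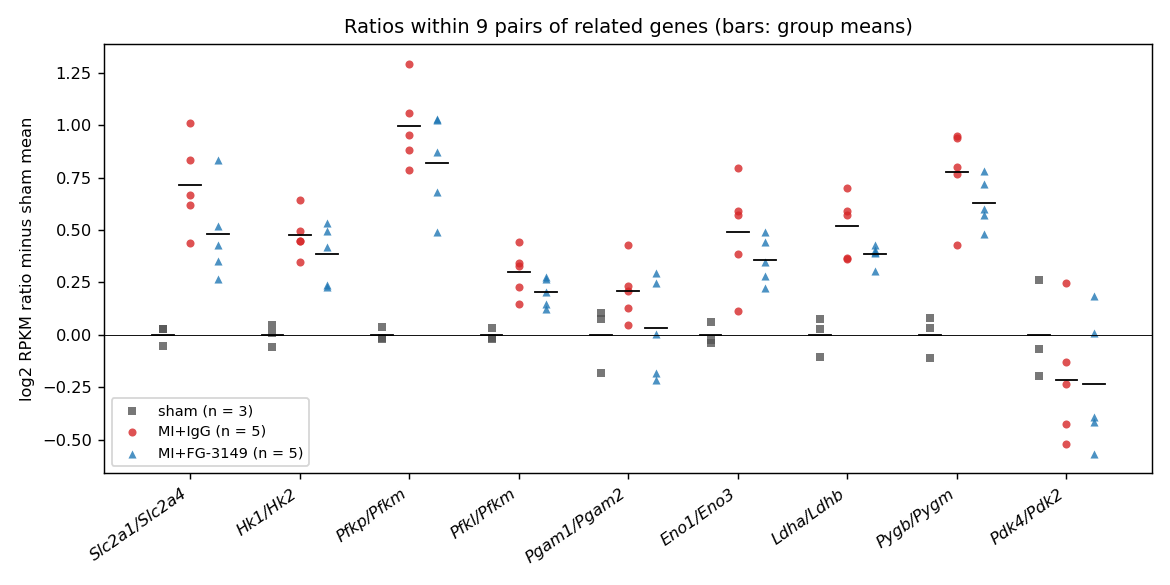
Log2 ratio of RPKM within 9 pairs of related genes, minus the mean of the 3 sham libraries; each point is a library (3 sham, 5 MI+IgG, 5 MI+FG-3149) and each bar a group mean. Ratios of infarcted libraries lie above sham for 7 pairs and overlap sham for Pgam1/Pgam2 and Pdk4/Pdk2.

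The upstream sequences of 2 such pairs are shown because the partners differed in response: Ldhb fell while Ldha did not pass, and Pygm fell while Pygb rose. Each run is the 250 bases before the RefSeq start (GRCm38.p6), 5′ to 3′ on the gene's strand, from chr7:46845554-46845803 (plus), chr6:142507958-142508207 (minus), chr2:150786546-150786795 (plus) and chr19:6384158-6384407 (plus). Capitals mark ACGTG on either strand, the core of the element bound by hypoxia-inducible factor, including where it forms part of CACGTG, an E-box.
Ldha upstream: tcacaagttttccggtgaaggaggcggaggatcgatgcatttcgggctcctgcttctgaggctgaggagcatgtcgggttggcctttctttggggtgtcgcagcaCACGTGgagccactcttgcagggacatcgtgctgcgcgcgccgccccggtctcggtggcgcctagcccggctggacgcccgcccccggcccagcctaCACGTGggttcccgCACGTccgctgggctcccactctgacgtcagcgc
Ldhb upstream: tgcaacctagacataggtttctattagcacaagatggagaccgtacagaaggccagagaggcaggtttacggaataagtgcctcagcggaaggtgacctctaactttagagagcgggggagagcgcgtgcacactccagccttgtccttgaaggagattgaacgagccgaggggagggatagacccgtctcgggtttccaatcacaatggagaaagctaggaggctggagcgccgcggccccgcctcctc
Pygb upstream: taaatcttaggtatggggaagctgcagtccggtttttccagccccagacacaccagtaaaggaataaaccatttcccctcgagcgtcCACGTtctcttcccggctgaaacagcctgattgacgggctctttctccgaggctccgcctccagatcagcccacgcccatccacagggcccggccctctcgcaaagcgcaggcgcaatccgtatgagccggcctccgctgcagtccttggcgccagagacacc
Pygm upstream: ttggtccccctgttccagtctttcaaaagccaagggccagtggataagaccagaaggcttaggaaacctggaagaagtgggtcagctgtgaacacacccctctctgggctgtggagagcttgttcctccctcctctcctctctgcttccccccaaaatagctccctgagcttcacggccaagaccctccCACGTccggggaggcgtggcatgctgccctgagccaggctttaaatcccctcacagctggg

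Of the 37 members, 35 had an upstream sequence in the RefSeq table (Slc2a4 and Pdp1 did not). ACGTG on either strand occurred in 12 of 35 members (34.3%) and in 16.6% of 32851 windows of the same length, and its palindromic extension CACGTG in 4 of 35 (11.4%) against 6.0%. The core of the estrogen-related receptor element, AAGGTCA, occurred in 1 of 35 (2.9%) against 4.1%, and TATTTTTA, a core of the MEF2 element, in 1 of 35 (2.9%) against 2.5%. ACGTG was present upstream of 4 of the 8 members that rose with IgG and 5 of 13 matched members that fell. The background windows were counted once per start, so a gene can appear more than once, and were not matched to the members for G and C content. The differences in share were not tested. The window of Pfkfb2 lay 13205 bases from the annotated start of its gene entry. A match describes the letters in this window and does not show binding.

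Between the infarcted groups the members differed little by gene count. With Mpc2, 8 members had an unadjusted p under 0.05 by edgeR, and the matching share of all genes was not counted. DESeq2, which called 2.07% of all genes there, called 4: Mpc2 (adjusted p = 0.000173), Dlat (0.014), Pygm (0.0226) and Pdk2 (0.0407). The edgeR values of the last 3 were 0.16, SE 0.04, adjusted p = 0.101 for Dlat, 0.18, SE 0.05, adjusted p = 0.103 for Pygm and 0.17, SE 0.05, adjusted p = 0.119 for Pdk2. By whole-gene counts, all 3 fell with IgG and stood nearer to sham with FG-3149. From last exons alone, Dlat was lower than sham with FG-3149 (-0.30, edgeR adjusted p = 0.00155). All 3 also had a higher first-exon share in every FG-3149 library than in any IgG library. Without IgG replicate 1, Pdk2 and Pygm passed by edgeR (adjusted p = 0.0373 and 0.0411; ranges over the alternatives 0.0373 to 0.256 and 0.0226 to 0.282). For 9 members called lower with IgG and not with FG-3149 (Aldoa, Dlat, Eno3, Gys1, Hk2, Mpc2, Pdhb, Pdp1 and Pfkm), edgeR's test between the infarcted groups passed for Mpc2 alone, with whole-gene counts, and DESeq2's for Mpc2 and Dlat. A call against sham with IgG and none with FG-3149 is not by itself a difference between the antibodies. The log2 fold changes of the other 8 between the groups ranged from 0.07 to 0.19. Picking the 9 by their calls against the shared sham libraries favours positive values, so no direction is read from this range.

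Other genes of the same steps gave 9 higher and 10 lower of 44 tested with IgG, 9 and 8 with FG-3149, and 1 and 0 between the infarcted groups, beside the background shares of 33.7%, 29.5% and 1.07%. Fbp2, the muscle fructose bisphosphatase that opposes phosphofructokinase, fell from 41.2 ± 2.37 to 19.7 ± 1.97 CPM with IgG, a log2 fold change of -1.07 (SE 0.11, adjusted p = 1.12e-06), and at -0.87 (SE 0.11, adjusted p = 2.29e-05) with FG-3149. Lactate and pyruvate carriers moved apart: Slc16a3 (MCT4), the lactate exporter of glycolytic cells, rose from 1.51 ± 0.553 to 4.31 ± 0.833 CPM with IgG, at 1.52 (SE 0.27, adjusted p = 0.000268), and Slc16a7 (MCT2) fell from 10.6 ± 2.18 to 4.06 ± 0.938 CPM, at -1.40 (SE 0.19, adjusted p = 3.14e-05). Stbd1, which binds glycogen, rose by 1.25 (SE 0.21, adjusted p = 0.000354) with IgG. Phkg1, the catalytic subunit of muscle phosphorylase kinase, fell, at -0.55 (SE 0.09, adjusted p = 0.000155) with IgG and at -0.35 (SE 0.09, adjusted p = 0.00787) with FG-3149, the latter lost without sham replicate 2 (adjusted p = 0.0863) and from last exons alone (0.234), within a range over the alternatives of 0.00515 to 0.234. Bsg, the chaperone of the lactate transporters, was higher with FG-3149 than with IgG, by 0.23 (SE 0.05, adjusted p = 0.0212), a call lost without IgG replicate 5 or FG-3149 replicate 4 or 5 (adjusted p up to 0.0705, range over the alternatives 7.03e-05 to 0.0705). All adjusted p values here are edgeR's.

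Side branches of glycolysis gave 1 higher and 6 lower of 24 in each comparison with sham, where 33.7% of all genes were called with IgG and 29.5% with FG-3149. With FG-3149 against IgG 1 was higher and 0 lower, where 1.07% of all genes were called. Sord, the sorbitol dehydrogenase of the polyol pathway, fell, at -0.38 (SE 0.06, adjusted p = 0.000186) with IgG and -0.29 (SE 0.07, adjusted p = 0.00279) with FG-3149. Akr1b3, the aldose reductase of the same pathway, fell, at -0.24 (SE 0.05, adjusted p = 0.00185) and -0.23 (SE 0.05, adjusted p = 0.0039). Ogt, which attaches O-GlcNAc to proteins, fell, at -0.35 (SE 0.07, adjusted p = 0.000878) and -0.31 (SE 0.07, adjusted p = 0.00329). G6pdx, the entry enzyme of the pentose phosphate pathway, rose by 0.47 (SE 0.12, adjusted p = 0.0049) with IgG, a call lost from last exons alone (adjusted p = 0.0634, range over the alternatives 0.00154 to 0.0634). Its neighbour Pgls was higher with FG-3149 than with IgG, by 0.46 (SE 0.09, adjusted p = 0.0176), a call lost without FG-3149 replicate 3 or 4 (edgeR adjusted p up to 0.0563) and with first exons left out (adjusted p = 0.114), within a range over the alternatives of 0.000572 to 0.283.

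Regulators of glucose use gave 5 higher and 15 lower of 34 with IgG, and 4 higher and 11 lower with FG-3149, beside 17.8% and 15.9% of all genes with IgG and 15.6% and 13.9% with FG-3149. Between the infarcted groups 0 of 34 passed by edgeR (1.07% of all genes called), where 4 had an unadjusted p under 0.05 and 0 passed by DESeq2. Tbc1d4 (AS160), the insulin-controlled brake on GLUT4 traffic, fell from 171 ± 5.17 to 99.7 ± 7.67 CPM with IgG, a log2 fold change of -0.78 (SE 0.06, adjusted p = 1.13e-07), and at -0.66 (SE 0.06, adjusted p = 1.26e-06) with FG-3149. Irs1, the insulin receptor substrate, fell, at -0.67 (SE 0.12, adjusted p = 0.000719) and -0.59 (SE 0.12, adjusted p = 0.00269). Egln1, the prolyl hydroxylase that marks hypoxia-inducible factor for breakdown, fell, at -0.36 (SE 0.05, adjusted p = 6.42e-05) and -0.22 (SE 0.05, adjusted p = 0.00565), and Ppargc1a (PGC-1 alpha) fell, at -0.39 (SE 0.08, adjusted p = 0.00146) and -0.35 (SE 0.08, adjusted p = 0.00471). Myc, an activator of glycolytic genes, rose from 1.84 ± 0.233 to 5.22 ± 0.586 CPM with IgG, at 1.49 (SE 0.20, adjusted p = 2.68e-05), and by 1.32 (SE 0.21, adjusted p = 0.000187) with FG-3149. Prkab2, a subunit of AMP-activated protein kinase, rose by 0.51 (SE 0.08, adjusted p = 8.48e-05) and 0.57 (SE 0.08, adjusted p = 5.68e-05). These 6 regulators passed edgeR in every alternative tried in both comparisons with sham, which share the sham libraries.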

How the data were processed

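RNA-seq libraries of 13 mice (3 sham, 5 MI+IgG, 5 MI+FG-3149) were made from 500 ng of total RNA with a stranded mRNA kit and read as single 75-base reads on one flow cell, per the labels' protocols. Deposited by the authors were estimated counts of genes and exons, not rounded to whole numbers, and RPKM per RefSeq transcript; the genome build is mm10, per the submitters' processing notes, and the aligner and counter are not given in the sources used here. Of 36172 gene entries, 379 that repeat a symbol were left out.

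Estimated counts were rounded, scaled by TMM and tested with edgeR 4.0.16 in R 4.3.3 (filterByExpr, quasi-likelihood, 1 fit over all 13 libraries, Benjamini-Hochberg adjusted p under 0.05). CPM of genes are TMM-scaled, and exon CPM are scaled by the library's total. RPKM of a gene is the deposited RPKM of its transcripts, used for levels between genes and for pair ratios. The series' design counts animals, so each library was taken as 1 mouse. All 37 members may be named, and of each related list up to 6 called genes with the smallest adjusted p per comparison, with Arntl and Dbp. Members and lists were chosen with earlier results of these data known. Alternatives were DESeq2 1.42.0, limma 3.58.1 on log2 RPKM plus 1 or 0.1, other scaling, no filter, fits of 2 groups, a replicate block and each library left out. Leaving out first exons, counting last exons alone and splitting Mpc2 by exon were chosen after seeing the data. The scripts were tested on simulated data. One gene that the naming rule selects is not reported here.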

Additional observations from a re-analysis of the deposited data

Results flagged for a closer look

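Pgam2 stood at 509 CPM in MI+IgG replicate 4, while the other 4 libraries of that group lay between 479 and 487 CPM. Pfkfb2 stood at 128 CPM in MI+FG-3149 replicate 3, while the others lay between 195 and 221 CPM. The median first-exon share was 1.87% in MI+FG-3149 replicate 1 and 2.11 to 2.19% in the others of that group. In each case 1 library lay far from its group by Dixon's criterion, as 3 of 96 groups checked did, and chance gives about 1 in 20. The Mpc2 difference between the infarcted groups, a log2 fold change of 0.39, passed edgeR's test with whole-gene counts and did not pass with first exons left out; the cause was not tested.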

How the results depend on the processing

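Alternatives to the edgeR fit moved few counts by more than 1.5 times. Between the infarcted groups, 144 genes were called, against 278 by DESeq2, 83 when only the 2 groups were fitted, 52 with first exons left out and 54 from last exons alone. Members called there numbered 1 (higher), against 4 by DESeq2 and 0 both with first exons left out and from last exons alone. Mpc2 with FG-3149 against sham changed from 0.03 to -0.36 from last exons alone. As a log2 ratio of M1 to M2 counts, the Pkm difference with FG-3149 against sham was -0.53 (exact permutation p = 0.0357).

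With each library left out in turn, genes called ranged from 3329 to 4808 (MI+IgG against sham), 2641 to 3815 (MI+FG-3149 against sham) and 68 to 271 (between the infarcted groups). Members called ranged from 16 to 26 (5 to 9 higher, 11 to 17 lower), 9 to 15 (4 to 8 higher, 3 to 7 lower) and 1 to 3 (1 to 3 higher, 0 lower). The Pkm M1 share difference ranged from -3.83 to -3.28, -2.42 to -1.50 and 1.09 to 2.01 percentage points. For members that did not pass, 76 values in 23 results changed sign, all with a log2 fold change of at most 0.15 in size.

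Deviations of samples with the same replicate number from their group means were weakly correlated (-0.04 to 0.18). The highest values were those of replicates 1 and 2 between the infarcted groups (0.18 and 0.13). Whether such samples share a batch or a time of collection was not tested. With the replicate block, 5 members were called higher with FG-3149 against sham in place of 10. With 3 sham libraries, calls near the threshold were often lost when 1 library was left out.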

Other observations

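The deposited split of counts among the transcripts of a gene differed between libraries for some members, and no test was made of it. For Pfkm, 3 transcripts took nearly equal parts in every FG-3149 library, at 33.6 to 33.9%, 32.9 to 33.0% and 33.2 to 33.4%. The first of them took 11.7 to 15.0% among the sham libraries and 11.4 to 27.6% among those given IgG. The second took 48.1 to 53.5% and 36.0 to 51.8%, and the third 33.5 to 36.9% and 34.3 to 36.8%. For Aldoa, 1 of 3 transcripts took 23.7 to 25.4% among the sham libraries, 11.1 to 24.6% after IgG and 4.86 to 7.45% after FG-3149. The Pkm exon shares come from exon counts and not from this split.

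Of 8 endothelial markers tested with edgeR, 0 rose and 2 fell with IgG, and 0 rose and 4 fell with FG-3149, both against sham, where 33.7% and 29.5% of all genes were called. Their summed level was 1405 to 1547 CPM in the sham libraries, 1135 to 1454 CPM in those given IgG and 1187 to 1324 CPM in those given FG-3149. Of 5 atrial muscle genes, 2 passed the filter on low counts, and 1 of these rose against sham with IgG and 1 with FG-3149 (17.8% and 15.6% of all genes rose). Their summed level, nearly all of it the natriuretic peptide Nppa, was 102 to 124 CPM, 1532 to 3527 CPM and 1138 to 2765 CPM in the same order.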
